A study of Mus musculus with 46 samples.

Results

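H3.3 peaks called in both cKit-sorted fractions of a fibroblast-to-blood conversion, and in neither its MEF nor its D4 library, are described here. They were chosen by position alone: a peak of the cKit+ library counted as a member when it overlapped an H3.3 peak of the cKit- library by at least 1 bp and overlapped no H3.3 peak of the MEF or D4 library. Of 28076 cKit+ peaks, 848 met this rule, or 3.02%. Of the remaining cKit+ peaks, 3891 overlapped a cKit- peak and also a MEF or D4 peak, 15384 overlapped a MEF or D4 peak but no cKit- peak, and 7953 were found in cKit+ alone.

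The series holds 46 ChIP-Seq samples (chromatin immunoprecipitation and sequencing): 16 libraries of H3.3, 7 each of H3K4me3 and H3K36me3, and 16 inputs, and each of the 30 libraries other than inputs came with a peak list. MEFs were mouse embryonic fibroblasts carrying an Oct4 IRES-EGFP reporter, sorted free of cells with blood surface markers. For transdifferentiation they received pMX retroviruses for Scl, Lmo2, Runx1 and Bmi1, named SLBR induction in the labels: MEF is the sample before induction, D4 was taken 4 days after it, and the cKit+ and cKit- cells were sorted from fully transdifferentiated cultures by the surface receptor cKit. The converting cells were grown on inactivated OP9 stromal cells with added cytokines, so both sorted fractions came from cultures that also held feeder cells, and whether cKit- held unconverted fibroblasts or feeders was not tested. The reprogramming libraries came from MEFs with retroviral Oct4, Sox2, Klf4 and c-Myc: D0 before and D3 after 3 days, then fractions sorted by the fibroblast protein Thy-1 (D6T-, D6T+, D9T- and D9T+) or by the pluripotency antigen SSEA-1 (D12S+, D12S-, D16S+ and D16S-), and iPSCs, beside the embryonic stem cell line ESD3. The D6T-, D9T-, D12S+ and D16S+ fractions were those on the successful route. Each group had 1 library, so there was no replicate error to compare any value with, and the intervals given for shares (95% Wilson) cover counting error only.

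H3.3 is a variant of histone H3 that is deposited throughout the cell cycle, and not only while DNA is copied. The chaperone HIRA places it at active promoters, enhancers and transcribed gene bodies, and the ATRX and DAXX pair places it at telomeres and in repeated, silent chromatin. H3K4me3 marks active promoters and H3K36me3 the bodies of transcribed genes. Both marks were profiled only in reprogramming cells. They describe the chromatin of a place in those cells, and not in the MEF, D4, cKit+ or cKit- samples.

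Sequences of 300 bases at the centre of 6 members show the kinds of place the members occupied. Members from Ero1l and Lcp2 are shown as the one with the highest score under the input limit and as one in a gene of the immune signalling list. The Zfml member was found in 9 of the 12 reprogramming libraries and the intergenic member near Gm10283 in none of them. Capitals in these 4 sequences mark matches to a motif on either strand. The words searched were AGATAA for the GATA factors, TGTGGT for the Runx factors, AGGAAG for the Ets factors, CAGCTG and the word CAGATG for E-box factors, and TGACTCA for AP-1.

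Ero1l intron, chr14:45916716-45917015 (mm9, plus strand): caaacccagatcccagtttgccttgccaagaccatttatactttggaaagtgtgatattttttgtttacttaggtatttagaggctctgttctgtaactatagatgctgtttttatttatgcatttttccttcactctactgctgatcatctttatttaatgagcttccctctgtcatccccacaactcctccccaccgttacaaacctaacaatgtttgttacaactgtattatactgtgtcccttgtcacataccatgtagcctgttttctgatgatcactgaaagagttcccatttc

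Lcp2 intron, chr11:33952583-33952882 (mm9, plus strand): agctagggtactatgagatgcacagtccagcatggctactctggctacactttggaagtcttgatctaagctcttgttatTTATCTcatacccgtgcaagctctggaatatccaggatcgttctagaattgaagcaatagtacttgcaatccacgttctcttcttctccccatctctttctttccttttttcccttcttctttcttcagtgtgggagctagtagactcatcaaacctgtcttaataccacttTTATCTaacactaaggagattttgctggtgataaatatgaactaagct

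Zfml intron, chr6:83876967-83877266 (mm9, plus strand): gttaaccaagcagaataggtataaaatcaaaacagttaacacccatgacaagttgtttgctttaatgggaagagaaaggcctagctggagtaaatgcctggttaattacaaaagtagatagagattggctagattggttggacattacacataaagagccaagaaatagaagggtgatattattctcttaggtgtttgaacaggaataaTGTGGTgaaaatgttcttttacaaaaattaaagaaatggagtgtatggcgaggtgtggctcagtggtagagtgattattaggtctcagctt

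Intergenic, near Gm10283, chr8:62675233-62675532 (mm9, plus strand): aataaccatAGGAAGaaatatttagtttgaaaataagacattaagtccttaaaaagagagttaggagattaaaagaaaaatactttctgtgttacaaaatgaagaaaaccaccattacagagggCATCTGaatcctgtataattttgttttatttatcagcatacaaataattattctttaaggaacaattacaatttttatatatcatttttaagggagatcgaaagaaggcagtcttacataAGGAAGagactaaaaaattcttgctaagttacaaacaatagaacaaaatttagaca

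The Lcp2 window held a pair of GATA matches on the minus strand, the Zfml window 1 Runx match, and the Gm10283 window 2 Ets matches and 1 CAGATG. The Ero1l window held no match, which says only that these letters are not in it. The next 2 sequences are the members with the most input tags per kb. Their capitals mark bases that lie in 32-base words found at more than 1 place in the mm9 genome.

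Intergenic, near Pkdcc, chr17:83388163-83388462 (mm9, plus strand): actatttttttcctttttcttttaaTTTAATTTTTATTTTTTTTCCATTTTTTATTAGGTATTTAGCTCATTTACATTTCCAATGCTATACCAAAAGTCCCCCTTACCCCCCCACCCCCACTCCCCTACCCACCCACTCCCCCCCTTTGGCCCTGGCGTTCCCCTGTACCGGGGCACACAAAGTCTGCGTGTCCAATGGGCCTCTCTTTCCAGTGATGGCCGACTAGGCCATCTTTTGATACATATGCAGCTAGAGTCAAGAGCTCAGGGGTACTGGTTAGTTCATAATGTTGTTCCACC

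Gm3417 and Phf10 intron, chr17:15113136-15113435 (mm9, plus strand): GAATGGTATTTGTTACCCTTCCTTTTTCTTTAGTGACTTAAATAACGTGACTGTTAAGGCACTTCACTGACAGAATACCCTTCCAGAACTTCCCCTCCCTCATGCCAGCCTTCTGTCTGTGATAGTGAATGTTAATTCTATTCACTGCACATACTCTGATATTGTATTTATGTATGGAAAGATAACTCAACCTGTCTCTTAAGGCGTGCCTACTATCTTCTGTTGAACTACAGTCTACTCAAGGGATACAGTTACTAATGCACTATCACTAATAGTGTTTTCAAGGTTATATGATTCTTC

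In the window near Pkdcc 91.7% of the bases, and in the Gm3417 and Phf10 window 100% of them, lay in repeated words. Such words were counted because the study kept reads that mapped to a single place, and the repeated parts of a peak could then receive fewer reads.

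The members were short and shallow, like most peaks of these libraries. Length ran from 500 bp, the shortest length listed, to 4847 bp, and 62.7% were exactly 500 bp long. The score of a peak, its tags scaled to a library of 10 M tags, ran in cKit+ from 3.87 to 46.8 with a median of 5.07, against a median of 4.80 over all cKit+ peaks, 4.47 in peaks of cKit+ alone and 6.32 in peaks shared also with MEF or D4. The median member held 46.5 tags. Fold over input ran from 2.00, the lowest the authors kept, to 8.21, with a median of 2.16. A fold of 3 or more was reached by 21 members (2.48%), as against 2.80% of all cKit+ peaks, and 7 members reached it in both fractions.

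The overlapping cKit- peaks scored higher in most cases. Their scores ran from 4.36 to 239 with a median of 7.66, and the cKit- score was above the cKit+ score at 717 members (84.6%). Peaks shared also with MEF or D4 tilted the same way, with median scores of 6.32 in cKit+ and 8.73 in cKit-. How many of those peaks had the higher score in cKit- was not counted. The 2 libraries differed in depth, and the lowest score under a member was 3.87 in cKit+ and 4.36 in cKit-. How much these differences add to the tilt was not tested. The cKit- peak was also the longer one at 368 members, with a median length of 625 bp, and the score is not divided by length. Per kb, the median was 9.16 in cKit+ and 12.3 in cKit-. The score per kb in the 2 fractions had a Spearman correlation of 0.460 over the 848 members, and the input densities of the 2 fractions one of 0.468. The cKit+ score per kb followed the cKit+ input density more closely (0.818), and the fold, tags over input, was near 2 at most members. The cKit+ library held 91.8 M tags and cKit- 51.6 M, with 1.65% and 2.31% of them in peaks, so most tags of both lay outside any peak. The plot of scores in both fractions shows this spread.

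**Figure D1:**
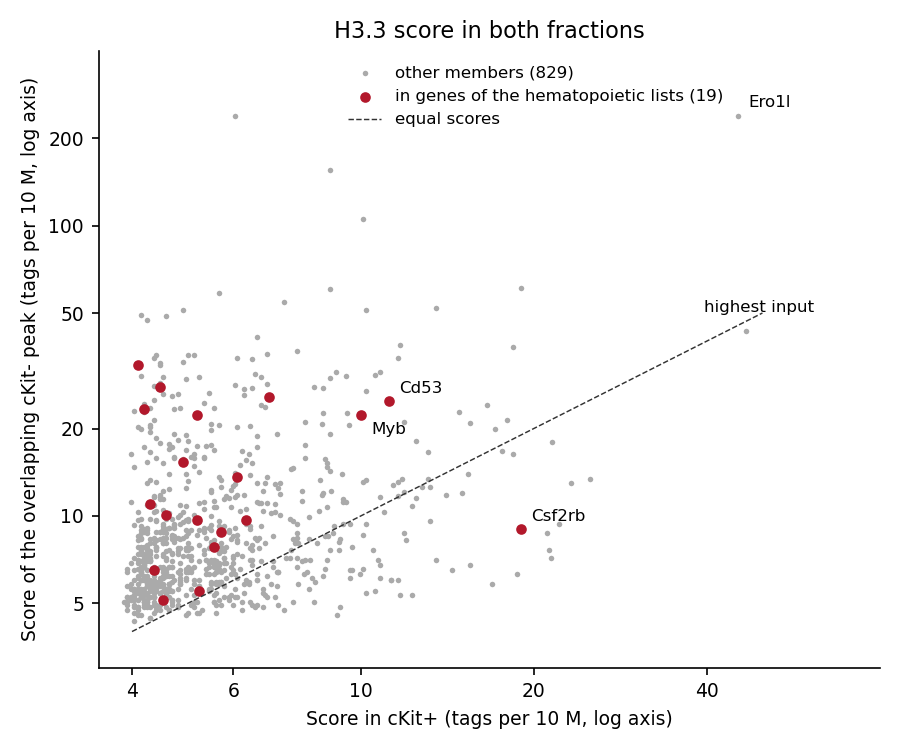
H3.3 score of each of the 848 members in cKit+ (horizontal) and of the overlapping cKit- peak (vertical), both in tags per 10 M on log axes, with 1 point a member; the dashed line marks equal scores and red points the 19 members in genes of the hematopoietic lists. Most points lie above the line, the Ero1l member reaches 239 in cKit-, and the member of the highest input lies near the line at 46.8 and 43.3.

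The overlap itself was partial at many members. At 122 members (14.4%) the cKit+ peak lay wholly within cKit- peaks, at 533 (62.9%) at least 50% of it did, and at 37 (4.36%) fewer than 50 bp were shared. The members just inside this edge were an intergenic peak nearest to Gstm2, which overlapped its cKit- peak by 1 bp, and intronic peaks of Map3k3 and Sec22b with 3 bp each. Just outside it were intergenic peaks nearest to 1810029B16Rik, 2 bp from a cKit- peak, and to Spp1, at 4 bp, and an intronic peak of Ints6 at 10 bp. At the other edge of the rule, members in Kcnab1, Fxr1 and Pip4k2a lay 7, 8 and 11 bp from a MEF or D4 peak, while peaks in Prkg1, near Spag4 and in Klhl24 shared 2, 3 and 6 bp with one and were not members.

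Many members therefore neighboured H3.3 of the earlier cells. The distance to the nearest MEF or D4 peak had a median of 1438 bp, with 355 members (41.9%) within 1 kb, against 36.1% of the peaks of cKit+ alone. Only 123 members (14.5%) lay more than 10 kb from any MEF or D4 peak. The lists of MEF (52862 peaks, 57.5 Mb) and D4 (108179 peaks, 267 Mb) covered more of the genome than those of cKit+ (17.7 Mb) and cKit- (17.9 Mb), and how much of the rule's outcome came from these sizes was not tested.

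Most members lay inside genes, in introns. By the midpoint of the peak, 494 members (58.3%) were intronic, 46 (5.42%) exonic, 46 (5.42%) at transcript ends (TTS, from 100 bp before to 1000 bp after the end) and 19 (2.24%) at promoters (promoter-TSS, from 1000 bp before to 100 bp after a start site), and 243 (28.7%) were intergenic. Within genes were thus 605 members or 71.3% (95% interval 68.2 to 74.3), close to the 74.1% of all cKit+ peaks. The promoter share of 2.24% (1.44 to 3.47) was below the 4.97% of all cKit+ peaks and near the 2.11% of peaks of cKit+ alone. The median distance from a start site was 13171 bp for members, 11050 bp for all cKit+ peaks and 15879 bp for those of cKit+ alone. Peaks shared also with MEF or D4 were nearer to start sites, at 7690 bp, and 7.14% of them were at promoters.

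In base composition the members were like the peaks of cKit+ alone. Their GC content had a median of 41.5%, with 43.3% over all cKit+ peaks and 41.1% in cKit+ alone, and the observed over expected CpG ratio had a median of 0.167, far below that of CpG islands, against 0.186 over all. Each 300 bp centre was searched for the motifs named above. AGATAA was in 19.5% of members and 17.5% of all cKit+ peaks, TGTGGT in 19.2% and 21.9%, AGGAAG in 34.0% and 33.3%, CAGATG in 21.8% and 21.7%, and TGACTCA in 3.66% and 4.96%. CAGCTG was in 7.90% of the members (6.27 to 9.91), fewer than the 12.4% of all cKit+ peaks and the 11.0% of those of cKit+ alone. The words are short and the matches are a description of the letters only.

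Members were spread over all autosomes and the X chromosome. Another member lay within 2 kb of 38 members (4.48%), within 10 kb of 112 (13.2%) and within 50 kb of 235 (27.7%). The same counts were not made for other cKit+ peaks, so whether members stood closer together than those was not tested. Of the cKit+ peaks of each chromosome, the members' share ran from 1.66% on chromosome 17 to 8.99% on chromosome X, where 8 of 89 peaks were members. No member lay within 3558 bp of an assembly gap.

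Input tags were used to flag places that may be artefacts of the genome or its assembly. The input density of each peak was divided by the median of its own library, and a ratio of 3 or more was called high. It was reached by 4 members (0.472%, 0.184 to 1.21), and the share over all cKit+ peaks was 0.0499%, or 14 peaks. Peaks shared with cKit- and with MEF or D4 had 8 (0.206%), a share inside the members' interval. A ratio of 2 or more was reached by 10 members in cKit+ (1.18%, 0.642 to 2.16). The share was 0.246% over all cKit+ peaks and 0.720% in those shared also with MEF or D4. In both fractions 9 members reached it. The ratio had a median of 1.05 among members, so most stood on ordinary input.

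The member near Pkdcc, chr17:83388063-83388563, stood apart from the others. Its input was 10.4 times the median in cKit+ and 8.25 times in cKit-, its scores were 46.8 and 43.3, and its fold over input was 2.23 and 2.10. Of its 32-base words 68.1% were repeated, with a median of 3192 copies. It was found in no H3.3 list of the reprogramming series, yet all 7 H3K36me3 lists held it, with scores between 37.1 in D16S+ and 47.5 in D6T-. It lay 226310 bp from the nearest start site, that of Pkdcc, a secreted kinase gene.

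The other members of high input differed from it. The member in Gm3417 and Phf10 (chr17:15113036-15113536), Phf10 being a subunit of a chromatin remodelling complex, had input of 4.35 times the median in cKit+ and 4.26 times in cKit-, and every word of it was repeated, at a median of 3 places. Scores there were 18.0 in cKit+, 21.4 in cKit- and between 54.0 (D12S+) and 146.1 (D6T-) in the 10 reprogramming libraries that held it, while D0 and D16S+ did not. The intergenic member near Gm10283 (3.57 and 2.72 times the median, scores 21.5 and 18.0) and the Psd3 member (3.22 and 3.32 times, scores 17.6 and 16.8) held few or no repeated words. Next came an intergenic member near Msl3l2, below the limit in cKit+ at 2.77 times and above it in cKit- at 3.22 times.

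Repeated sequence was commoner among members than high input. At least 50% of the words were repeated in 39 members (4.60%, 3.38 to 6.23), against 2.21% of all cKit+ peaks, 3.76% of those of cKit+ alone and 1.62% of those shared also with MEF or D4. Of the 39, 24 were intergenic and 23 (59.0%) were in no reprogramming H3.3 list, the latter share being 42.4% among the other members. A median of 100 or more copies was found for 9 members (1.06%) and for 60 of all cKit+ peaks (0.214%). The 4 members of the highest fold, near Nrcam (8.21), near Tmem196 (6.33), in Zbtb20 (5.13) and near Gm4950 (5.11), were all of this repeated kind, and their input lay at only 0.43 to 0.55 of the median. In these members a high fold went with a low input count; whether reads lost to repeated sequence play a part was not tested.

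**Figure D2:**
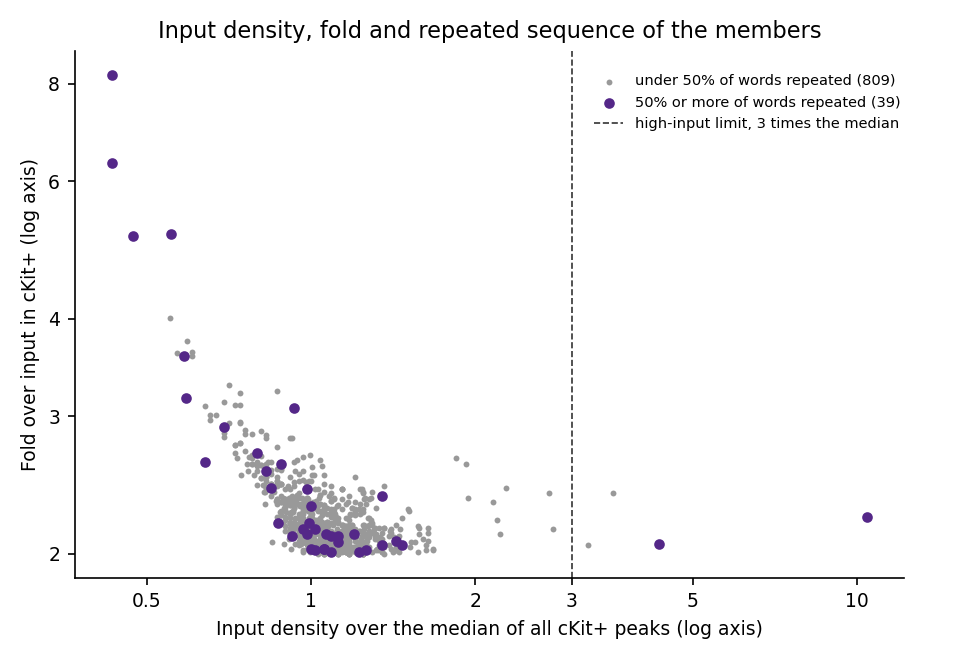
Input density of each of the 848 members over the median of all cKit+ peaks (horizontal, log axis) against the fold over input in cKit+ (vertical, log axis), with 1 point a member; purple points are the 39 members with at least 50% of words repeated and the dashed line is the high-input limit of 3. The members of the highest fold are purple and lie at the left, at low input, and 4 members lie right of the limit.

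Presence in the reprogramming libraries was the second readout, from 12 H3.3 lists of other cells that the rule did not use. An H3.3 peak of at least 1 of the 12 overlapped 482 members, or 56.8% (53.5 to 60.1), and 366 members had none. This was less than the 76.8% of all cKit+ peaks and the 94.5% of those shared also with MEF or D4, and more than the 45.8% of those of cKit+ alone. MEF and D0 are both fibroblasts before induction, so peaks chosen for a MEF peak were bound to be found more often in D0 and those chosen for lacking it less often. Peaks of cKit+ alone carry the same lack of a MEF or D4 peak and are thus the nearer comparison. The intervals of these 2 classes (53.5 to 60.1 and 44.7 to 46.9) cover counting error only. The classes also differed in other ways. Fewer members were 500 bp long (62.7% against 78.4%), and their median score was higher (5.07 against 4.47). More members lay within 1 kb of a MEF or D4 peak (41.9% against 36.1%). How much of the difference in presence goes with these traits was not tested.

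By library, the overlap with members ran from 4.72% in ESD3 to 27.4% (232 members) in D12S-. The early libraries D0 and D3 overlapped 15.0% (127 members) and 13.3%. Along the successful route the share was 23.0% for D6T-, 18.4% for D9T-, 8.14% for D12S+ and 6.13% for D16S+, and the iPSCs had 14.0%. The unsuccessful D6T+, D9T+ and D16S- cells had 9.55%, 17.2% and 16.9%. In each of the 12 libraries the share lay above that of the peaks of cKit+ alone (2.73% to 18.3%) and below that of all cKit+ peaks (12.3% to 49.4%). The libraries differed in depth (18.7 to 41.2 M tags) and in the genome their peaks covered (29.3 Mb in D16S+ to 140.9 Mb in D12S-), so shares of different libraries cannot be read as an order of the cells.

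**Figure D3:**
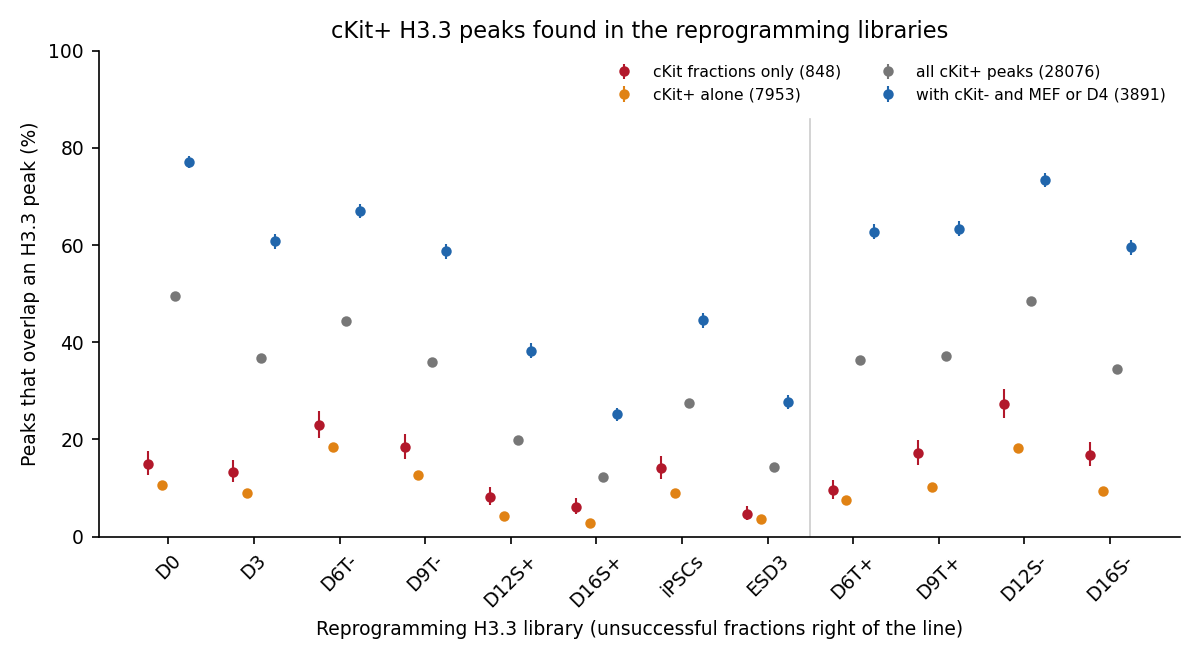
Share (%) of 4 classes of cKit+ peaks that overlap an H3.3 peak of each of the 12 reprogramming libraries (horizontal), with 95% Wilson intervals as bars; red is the 848 members, orange peaks of cKit+ alone, grey all cKit+ peaks and blue peaks shared also with MEF or D4. The red points lie between 4.72% and 27.4%, above the orange and below the grey ones in every library.

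Members were rarely present throughout the reprogramming series. Exactly 1 library held 146 members, 2 libraries held 87 and 3 held 91, and the number fell to 67 members (7.90%) for 6 libraries or more, against 32.8% of all cKit+ peaks. None of the members was held by all 12, whereas 989 cKit+ peaks (3.52%) were. Of the 7953 peaks of cKit+ alone, 3.86% were held by 6 libraries or more and 0 by all 12. D0 or D3 held 212 members (25%), iPSCs or ESD3 held 137 (16.2%), and 22 members were in both of the latter. Singly, D0, D3, iPSCs and ESD3 held 49.4%, 36.9%, 27.4% and 14.4% of all cKit+ peaks. Of the peaks of cKit+ alone they held 10.5%, 8.93%, 9.07% and 3.56%. The library count went with position: from members in no library to those in 7 or more, the median distance to a MEF or D4 peak went from 2725 to 429 bp and the share within genes from 62.8% to 80.6%. The same held for the peaks of cKit+ alone (3183 to 436 bp, and 64.7% to 77.4%).

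**Figure D4:**
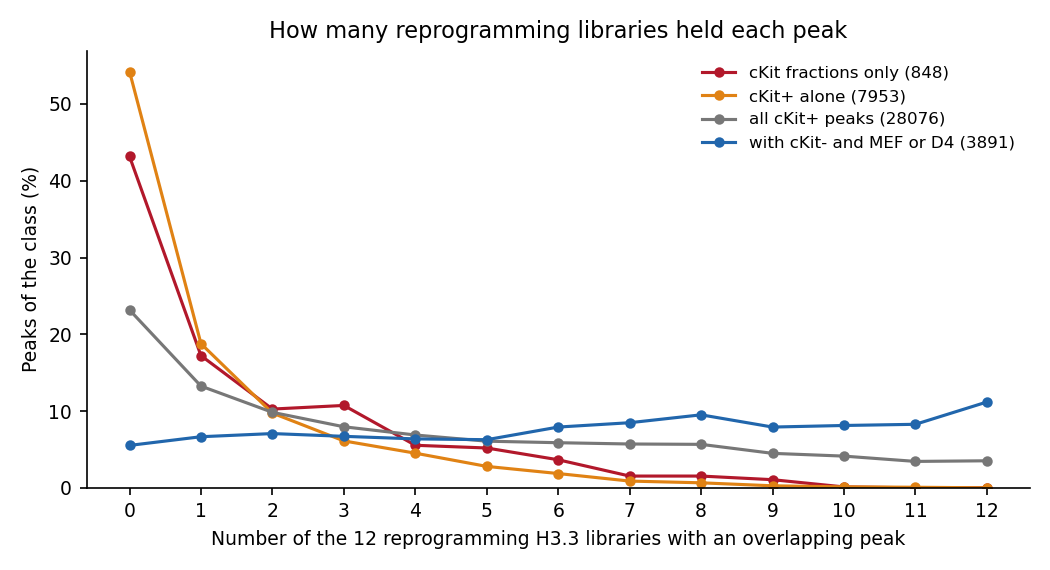
Share (%) of each class of cKit+ peaks by the number of the 12 reprogramming H3.3 libraries with an overlapping peak, from 0 to 12; red is the 848 members, orange peaks of cKit+ alone, grey all cKit+ peaks and blue peaks shared also with MEF or D4. The red line starts at 43.2% with no library and reaches 0 at 11, while 11.2% of the blue class is held by all 12.

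The members held by the most libraries were named by their count. The Gm3417 and Phf10 member led with 10 libraries but had high input. The 4 with 9 libraries had input of 1.02 to 1.58 times the median: they lay in Sp3, a zinc finger transcription factor gene, in Zfml, in Ehmt1, an H3K9 methyltransferase gene, and in Cog5, a Golgi complex subunit gene. The Sp3 member scored 10.2 in cKit+ and 51.3 in cKit-, and from 22.1 in D0 to 141.6 in D12S- among the 9. The Zfml member scored 8.12 and 5.62 in the cKit fractions, 6.93 in D16S+ and 70.1 in D12S-. Ehmt1 had 7.74 and 6.69 in the cKit fractions and 95.3 in D12S-, and Cog5 had 5.89 and 5.24, with 37.8 in D12S+ the highest of its 9. The Sp3, Zfml, Ehmt1 and Cog5 members lay 73, 81, 236 and 703 bp from a MEF or D4 peak, so H3.3 of the earlier cells stood beside each of them.

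Beside H3.3, the 7 H3K4me3 and 7 H3K36me3 lists of the successful route from D0 to iPSCs show which chromatin the members' places had in those cells. H3K4me3 was at 80 members (9.43%, 7.65 to 11.6), against 26% of all cKit+ peaks, 41.1% of those shared also with MEF or D4 and 7.95% of those of cKit+ alone. H3K36me3 was at 328 members (38.7%, 35.5 to 42.0), near the 40.9% of all cKit+ peaks, and the 36.4% of cKit+ alone lay inside the members' interval. The D0 list alone gave 31.0% of members and 32.9% of all.

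H3K36me3 and H3.3 were less frequent at intergenic members than at those within genes. The shares by place that follow were counted for members only, so they do not set members apart from other cKit+ peaks. H3K36me3 was at 76.1% of members at transcript ends, 71.7% of exonic, 63.2% of promoter (12 of 19), 45.3% of intronic and 9.88% of intergenic ones. H3.3 of any reprogramming library was at 82.6% of members at transcript ends (38 of 46), 60.3% of intronic, 58.7% of exonic, 63.2% of promoter (12 of 19) and 44.0% of intergenic ones. Of the 19 promoter members 2 (10.5%, 2.94 to 31.4) had H3K4me3 in any list. They were those of Mipep, a mitochondrial peptidase gene, and Actl6a, which encodes a remodelling complex subunit. Promoter peaks of the other classes were not counted for H3K4me3, so this is not shown to be a trait of the members. Altogether 269 members (31.7%) had no peak of H3.3, H3K4me3 or H3K36me3 in any of the 26 reprogramming lists. The same count was not made over all cKit+ peaks. For H3.3 by itself, 43.2% of members, 23.2% of all cKit+ peaks and 54.2% of those of cKit+ alone had no peak in the 12 lists.

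The 605 members within genes fell on 508 protein-coding genes, which is 2.28% of the 22238 annotated and 7.25% of the 7004 with any cKit+ peak. Of these genes 425 had 1 member, 64 had 2 and 19 had 3 or more. Ero1l, which encodes an oxidase of the endoplasmic reticulum, Fndc3a and Smg1, a kinase of nonsense-mediated mRNA decay, had 5 each. Myb, Lyn, Fnip1, Spag9 and Lyst, a regulator of lysosomal traffic, had 4 each. With 3 each followed Fli1, Zeb2, Gab2, Sp3, Jmjd1c, Tnrc6b, Ap3s1, Erbb2ip, Ssh2, Vps13d and 1110028C15Rik. These 19 genes spanned 35.4 to 243.9 kb, against a median of 15.5 kb over all genes, and a long gene offers more places to a peak.

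Ero1l held the member of the highest score at ordinary input. The peak chr14:45914443-45919290, in an intron, scored 45.4 in cKit+ (416.5 tags, exact Poisson interval 377.0 to 458.0) at 1.13 times the median input. It lay wholly within a cKit- peak of 16845 bp that scored 239, the highest of the cKit- scores under members, and which also covered a second member. Scores at this place in the reprogramming libraries were 9.46 in D0, 29.3 in D6T-, 27.3 in D9T-, 16.9 in D12S+, 8.02 in iPSCs, 46.7 in D12S- and 77.6 in D16S-, with no peak in the other 5. The nearest MEF or D4 peak was 15945 bp away. Over the body of Ero1l MEF had no H3.3 peak and D4 had 1, while cKit+ had 4 and cKit- 5.

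Other members of high score were long peaks in genes of many functions. Smg1 had a member of 3251 bp that scored 25.1 in cKit+ and 13.4 in cKit-, and that was held by 5 reprogramming libraries. Fndc3a had members scoring 23.2 and 21.1 in cKit+, and 13.0 and 8.73 in cKit-. Cd47, whose product keeps macrophages from engulfing the cell, had 2 members with 21.3 and 19.0 in cKit+ against 7.66 and 60.8 in cKit-. Fxr1, an RNA-binding protein gene, had 22.1 and 9.40, and its member ended 8 bp from a MEF or D4 peak. Rnf130, a ubiquitin ligase gene, had 21.4 and 7.17, and the Ugt1a cluster of glucuronidation enzymes 18.7 and 6.30. The Ugt1a member was held by 8 reprogramming libraries, with scores from 28.7 in D12S+ to 236.6 in D12S-. Most of these members, other than those of Ero1l and 1 of Cd47, thus scored higher in cKit+ than in cKit-, the reverse of the members as a whole, but they were taken by their cKit+ score.

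Genes of the blood lineage were read from lists of 33 transcription factors and 54 surface and signalling genes, of which 32 and 54 were matched to the annotation. A member lay in 9 of these 86 genes (10.5%, 5.60 to 18.7), or in 25% of the 36 with any cKit+ peak, beside 2.28% and 7.25% over all genes. The 86 genes had a median span of 23.3 kb against 15.5 kb over all, and the lists were made with earlier results known, so the counts are a description. On the surface and signalling list, 7 of 54 genes (13.0%, 6.42 to 24.4) had a member, or 33.3% (17.2 to 54.6) of the 21 with any cKit+ peak. Of the transcription factors 2 of 32 had one (6.25%, 1.73 to 20.1), or 13.3% (3.74 to 37.9) of the 15 with any cKit+ peak, and these intervals include the values over all genes. The 2 factors were Fli1 and Myb, and the 7 other genes were Csf2rb, Itgam, Itgb2, Lcp2, Sykb (the gene of the kinase Syk), Lyn and Cd53. By peaks, 19 of the 144 cKit+ peaks in genes of these lists were members (13.2%, 8.61 to 19.7), against 2.91% of all cKit+ peaks within genes. Peaks of 1 gene are not independent, and Myb and Lyn had 4 members each and Fli1 3, so this interval is too narrow.

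Lists of other cells held 1 gene with a member or none. Of 33 fibroblast and stromal genes 1 (Zeb2, 3.03%) had a member, or 5% of the 20 with a cKit+ peak, and 3 of their 126 cKit+ peaks were members (2.38%). Of 16 housekeeping genes 1 (Tbp) had one (6.25%), or 7.14% of the 14 with a cKit+ peak, the same gene share as among the blood transcription factors. With 1 gene each, both lists were near the 2.28% and 7.25% over all genes within their counting error. Of 12 endothelial, 20 pluripotency and 10 adipogenic genes, the last chosen for the OP9 feeder line, none. Only 2 endothelial, 2 pluripotency and 3 adipogenic genes had any cKit+ peak, so a member was hardly possible there.

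As a check of the labels, Kit itself, the gene of the sorting receptor, held no H3.3 peak in cKit+ or in cKit-, 2 in D4 and 0 in MEF, so its peaks do not tell the fractions apart. Ptprc, the pan-leukocyte gene CD45, held 0 in cKit+ and 5 in cKit-, with 1 in D4. Cd34, a progenitor marker, held 2 in cKit+ and 1 in cKit-, but also 2 in MEF. A peak list is no measure of expression, and the identity of the fractions rests on the labels.

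The 19 members in blood genes mostly lay at places without an H3.3 peak in reprogramming. Of them 16 (84.2%) overlapped no H3.3 peak of the 12 libraries, with an interval of 62.4 to 94.5 if peaks of 1 gene are taken as independent. The share was 43.2% of all members and 38.0% of those within genes. Peaks of cKit+ alone in the same lists were also mostly absent from the 12 libraries (28 of 36, 77.8%). The 3 exceptions were a Myb member in D3 and D6T-, a Myb member in ESD3 and a Cd53 member in D0. None of the 19 had H3K4me3 and 2 had H3K36me3. The shares were 9.43% and 38.7% of all members, and 11.7% and 45.3% of intronic ones. Other cKit+ peaks in genes of these lists were not counted for the 2 marks. In position 16 were intronic and none was at a promoter. Input ran from 0.730 to 1.52 times the median and none was of the repeated kind. Scores ran from 4.09 to 19.0 in cKit+ (median 5.18) and from 5.14 to 33.2 in cKit- (median 11.0), and fold over input in cKit+ from 2.00 to 2.65, so these are peaks near the lowest fold kept. The genes themselves were not empty of H3.3 in other cells. Of the 86 gene bodies, D0 had peaks in 45 (254 peaks) and D4 in 57 (331 peaks). For cKit+ it was 34 (138 peaks) and for cKit- 39 (205 peaks), with lists that covered less of the genome.

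Myb, a transcription factor of blood progenitors, had 4 members over its 36.1 kb. From the gene's start to its end on the minus strand, the first (chr10:20874521-20875021) scored 5.23 in cKit+ and 5.53 in cKit-. The second (chr10:20868109-20868609) scored 5.18 and the third (chr10:20866585-20867539) 10.0, and both lay on 1 cKit- peak of score 22.2. The fourth, just past the transcript's end (chr10:20843517-20844274), scored 6.92 and 25.6, and 6.39 in D3 and 17.9 in D6T-. Over the gene body there were 0 H3.3 peaks in MEF, 2 in D4, 5 in cKit+ and 10 in cKit-. Reprogramming libraries also had peaks elsewhere in Myb, from 0 in D0 to 4 in D9T- and D12S-. Both intronic members with the shared cKit- peak also overlapped the lincRNA Gm16786, from which they cannot be told apart.

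Fli1, an Ets factor of megakaryocytes and endothelium, had 3 intronic members. They scored 5.18, 4.52 and 6.32 in cKit+ and 9.70, 5.14 and 9.70 in cKit-, and no reprogramming library had a peak at any of them. Here MEF already had 4 peaks in the gene body and D4 8, against 12 in cKit+ and 10 in cKit-.

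Among the surface and signalling genes, Csf2rb, the shared beta chain of cytokine receptors such as that for IL3, held the highest score. Its member, chr15:78182995-78185014, lay by its midpoint in an exon near the gene's end, with 259 bp in an untranslated region. It scored 19.0 in cKit+ (174 tags, 149.1 to 201.9) and 9.02 in cKit-. None of the 12 reprogramming libraries had an H3.3 peak anywhere in the gene body, nor had MEF. D4 had 2, of which the nearer one lay 281 bp from the member, cKit+ had 3 and cKit- 4.

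Lcp2, an adaptor of immune receptor signalling, showed the reverse balance of scores, with 4.09 in cKit+ and 33.2 in cKit-. The nearest MEF or D4 peak was 24379 bp away. Over the gene body MEF had 0 peaks, D4 1, cKit+ 2, cKit- 7 and iPSCs 1. The integrin genes Itgam (CD11b) and Itgb2 (CD18), whose products pair on myeloid cells, had 1 intronic member each, with 4.47 and 6.10 in cKit+ and 27.8 and 13.6 in cKit-. Both genes also held peaks in MEF (1 each) and in D4 (4 and 5).

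Lyn and Sykb encode tyrosine kinases that act below immune receptors. The 4 Lyn members scored 4.36, 4.2, 4.58 and 5.56 in cKit+, and 6.50, 23.3, 10.1 and 7.85 in cKit-. Lyn was not empty before: MEF had 9 peaks over its 135.0 kb, D4 19 and D0 15, against 11 in cKit+ and 27 in cKit-. Sykb had 0 in MEF, 4 in D4, 3 in cKit+ and 11 in cKit-, and its 2 members scored 5.72 and 4.30 in cKit+ and 8.82 and 11.0 in cKit-. Cd53, a leukocyte tetraspanin gene, had a member in an intron that scored 11.2 and 24.8, and 8.53 in D0. Its other member, past the transcript's end, scored 4.90 and 15.3 and was in no other library. The map of 4 of these genes shows the members among all the H3.3 peaks.

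**Figure D5:**
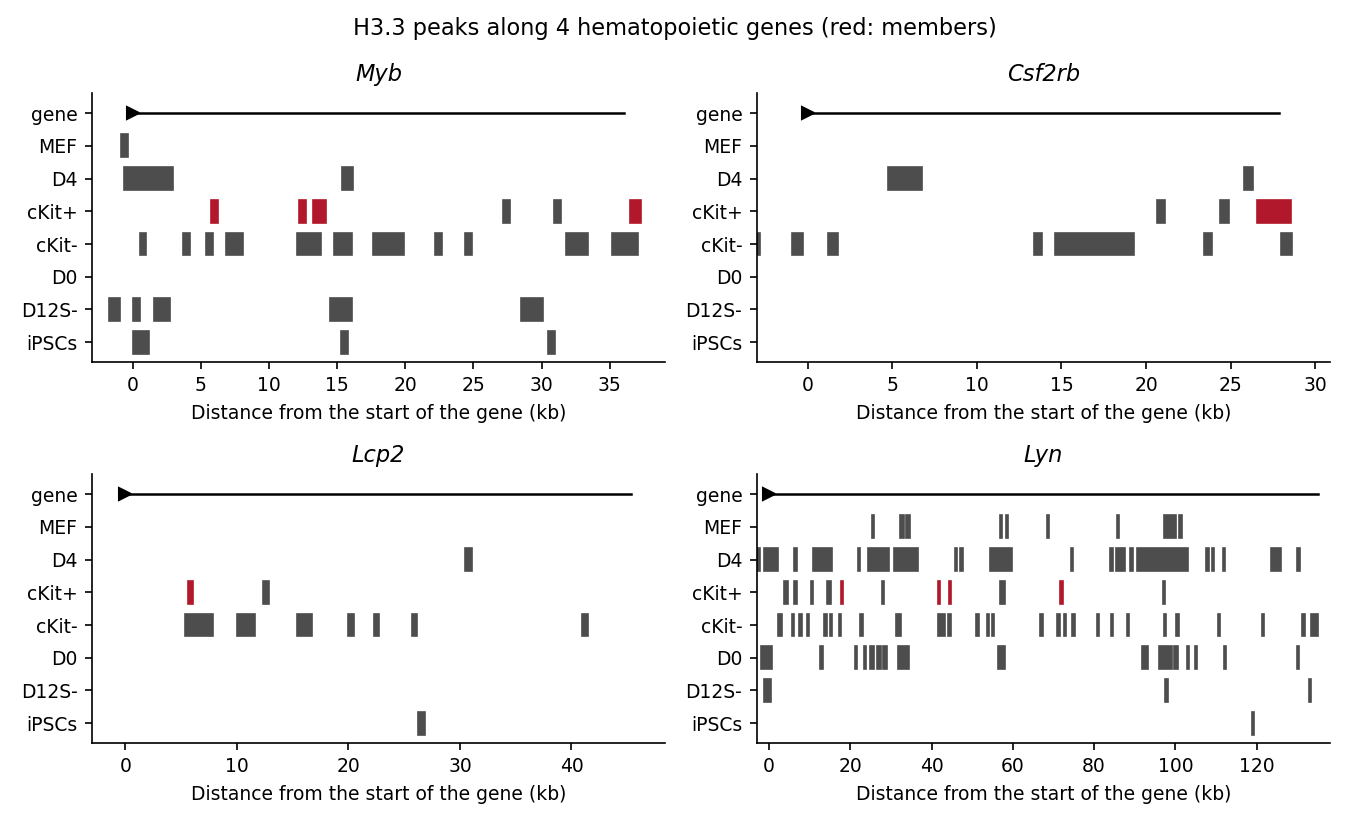
H3.3 peaks (boxes) along Myb, Csf2rb, Lcp2 and Lyn in 7 libraries, 1 row each, by distance in kb from the start of the gene in the direction of transcription; the line is the gene, red boxes are members and grey boxes other peaks. The MEF row is empty in Csf2rb and Lcp2, within the genes cKit- has 10 peaks in Myb and 7 in Lcp2, and Lyn has peaks in every row.

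The Zeb2 and Tbp members all had H3K36me3 in a reprogramming list, as had 2 of the 19 members in blood genes. Zeb2, a repressor of epithelial genes that is active in fibroblasts and in blood, had members scoring 9.54, 5.83 and 4.41 in cKit+ and 20.5, 6.88 and 35.8 in cKit-. None of them had H3.3 in a reprogramming library, but each lay in H3K36me3 of D0 and D9T-, with scores of 306.9, 306.9 and 84.7 in D0. The Tbp member, in an exon of the general transcription factor gene, lay 42 bp from a MEF or D4 peak, and scored 4.47 in cKit+ and 28.7 in cKit-. It was in D0 (6.12), D6T- (177.1), D9T- (59.3) and D12S- (153), and had H3K36me3 in 4 of the 7 lists.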

How the data were processed

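Peak lists of 30 ChIP-Seq libraries were read; the 16 inputs enter only through the input tags of each peak. The authors mapped reads to mm9 with STAR, allowing few mismatches and keeping reads of a single locus, and called peaks with HOMER findPeaks, histone style, in each library against an input without pooling (versions are not given in the sources used here). The deposited score is a signal, tags per 10 M. The deposited fold over input is a ratio, with lowest values of 2 for H3.3 and 4 for the other marks. The deposited p-value is a Poisson p of at most 0.0001, not adjusted. Input tags are scaled differently between lists, so input density was used only over the library's own median. The growth and treatment labels of the transdifferentiation samples repeat the text of the Oct4, Sox2, Klf4 and c-Myc induction, and the description of their culture was taken from the study's methods.

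Peaks were joined by an overlap of 1 bp, and placed by midpoint on the 22238 protein-coding genes of GENCODE vM1 (mm9) in the order promoter-TSS, TTS, exon, intron, intergenic, with pandas 2.3.3 and NumPy 2.4.6 in Python 3.11.15. Reference sequences came from mm9. Words of 32 bases, taken every 10 bases, were looked up in the genome on both strands; this replaced the share of soft-masked bases, because the genome used here carries no masking, and was chosen after the data were seen. The 32 cKit+ peaks on unplaced chromosomes have no sequence here. Spi1, Syk and Tfcp2l1 were matched as Sfpi1, Sykb and Tcfcp2l1, and Gfi1 was not matched. Overlaps, distances, gene placement and counts of repeated words were tested on simulated data. The confidence intervals and motif matches were not.

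The members and the gene lists were chosen with earlier results of these data known. Named were members in genes of the lists, the 10 of the highest cKit+ score under the input limit, the 5 of the highest input, the 5 in the most and the 5 highest in no reprogramming library, the 5 longest, and genes with 3 or more members; the members of the highest fold, nearest the edges of the rule and at promoters with H3K4me3 were named after their values were seen, as was the Lcp2 sequence. With 1 library a group no test was made. Depth was 13.2 to 91.8 M tags per library.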

Additional observations from a re-analysis of the deposited data

How the results depend on the processing

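No paired analysis was possible because each group has 1 library and no test was made. Of 58 recomputed values, 40 moved by less than their counting interval or by less than 1.5 times. The number of members, 848, became 533 when at least 50% of the cKit+ peak had to be shared, 493 with no MEF or D4 peak within 1 kb, 220 with p of at most 1e-06 in both fractions and 7 with a fold of at least 3 in both. Those 7 members are too few to describe: 28.6% lay within genes, 0% at promoters, 0% had high input, 28.6% overlapped H3.3 of a reprogramming library, 0% overlapped H3K4me3, and 0 blood genes held one. The share with H3.3 in a reprogramming library, 56.8%, became 53.1% with 50% overlap, 48.3% with the 1 kb distance, 63.6% with the stricter p, and 42.5% when D0 and D3 peaks were also excluded, which lowers it by construction. The H3K4me3 share, 9.43%, became 5.48% with the 1 kb distance and 12.3% with the stricter p. The high-input share, 0.472%, became 1.82% with the stricter p and 0.118% with a limit of 5 times the median. Blood genes with a member stayed between 6 and 9 in the alternatives other than the fold of 3. The high-input share without high-input members is 0 by construction and was not run. Leaving out chromosome X, the high-input members, or starting from cKit- peaks (829) changed little. Folds near 2 and about 46.5 tags in the median member limit what a single library can tell, and the lists hold no value for places that were not called, so a missing peak does not show that H3.3 is absent.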
